A study of Mus musculus with 10 samples.

Results

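Small pre-B cells were compared with large pre-B cells from mouse bone marrow. These are consecutive stages of B cell development, and the members were the 4 pre-B libraries among the 10 of the series, chosen by the cell type in the labels. There was 1 library of large and 1 of small cells from control mice, and 1 of each from mice labelled CKO, with 2 mice pooled for each library. The libraries of a genotype are taken here as 1 pool. All mice were C57bl/6 and 4 weeks old. The control genotype was Dyrk1a flox/flox, Mx1-Cre-. The CKO genotype was Dyrk1a -/-, Mx1-Cre+, so that the control cells carried the floxed gene without the transgene and the CKO cells carried Cre under the Mx1 promoter, which is not restricted to B cells. The other 6 libraries were cycling and quiescent CD4+CD8+ thymocytes and mature granulocytes of both pools, of which the 4 thymocyte libraries served for comparison. Each small library was set against the large library of the same pool. Values are read as FPKM, that is, fragments counted relative to transcript length and to the size of the library, and in every pair of values below the large cells come first.

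Large pre-B cells have made a heavy chain that pairs with the surrogate light chain proteins, and they divide under signals from this pre-B cell receptor and from interleukin-7. They then become small, leave the cell cycle, open and recombine the light chain loci with the RAG recombinase, and move towards the immature B cell stage. The kinase DYRK1A phosphorylates D-type cyclins, which marks them for degradation, and the LIN52 subunit of DREAM, the complex that represses cell-cycle genes in resting cells.

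The labels could be checked against B lineage genes and, in part, against Dyrk1a. All 12 pre-B markers were present in all 4 libraries. The lowest of them was Rag2 with 24.2 FPKM in large control cells. Dyrk1a (mm10, chr16:94570010-94695517, plus strand) went from 33.2 to 34.1 FPKM in the control pair and from 34.4 to 36.9 FPKM in the CKO pair. It therefore lay between 33.2 and 36.9 FPKM in all 4 libraries, and the fit called no change between small and large cells (log2 difference 0.07, SE 0.10, adjusted p = 0.603, limma). A gene total checks a deletion only if it covers the deleted exons, which the labels do not name. The values summed to between 360394 and 431868 FPKM per library, between 10073 and 10350 symbols reached 1 FPKM, and depth is not given. The Y-linked Ddx3y was listed at 0 in both control libraries and had 7.26 and 10.6 FPKM in large and small CKO cells, while Xist, made in female cells, had 60.6 and 65.2 FPKM in control and 42.6 and 45.6 FPKM in CKO cells. The CKO pool thus held both transcripts and the control pool Xist alone, so that genotype and the sex of the mice cannot be told apart between the pools.

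The step from large to small cells moved a large part of the transcriptome in both pools. In the control pair, 833 of 8348 genes reaching 5 FPKM in one of the libraries were at least 2-fold higher in small cells (9.98%) and 907 were at least 2-fold lower (10.9%), on the log2(FPKM + 1) scale. In the CKO pair the counts were 470 (5.71%) and 467 (5.67%) of 8235 genes. With 1 library on each side these counts describe the libraries and have no test. The 382 genes higher in both pairs were 45.9% of the control set and 81.3% of the CKO set, and the 422 lower in both were 46.5% and 90.4%. The control ratios were also wider. Their SD over 8584 genes was 0.895, against 0.706 in the CKO pair, and 88.4% of these genes had the same sign in both pairs. Of the 833 genes higher in small control cells, 760 had a smaller ratio in the CKO pair, with medians of 1.34 and 0.99. Of the 907 lower genes 861 had a smaller one, with medians of -1.50 and -0.99. For the sets chosen in the CKO pair the order was not turned round. The 470 genes higher there had a median of 1.34 in the CKO pair and 1.48 in the control pair, and the 467 lower genes had medians of -1.30 and -1.87.

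**Figure D1:**
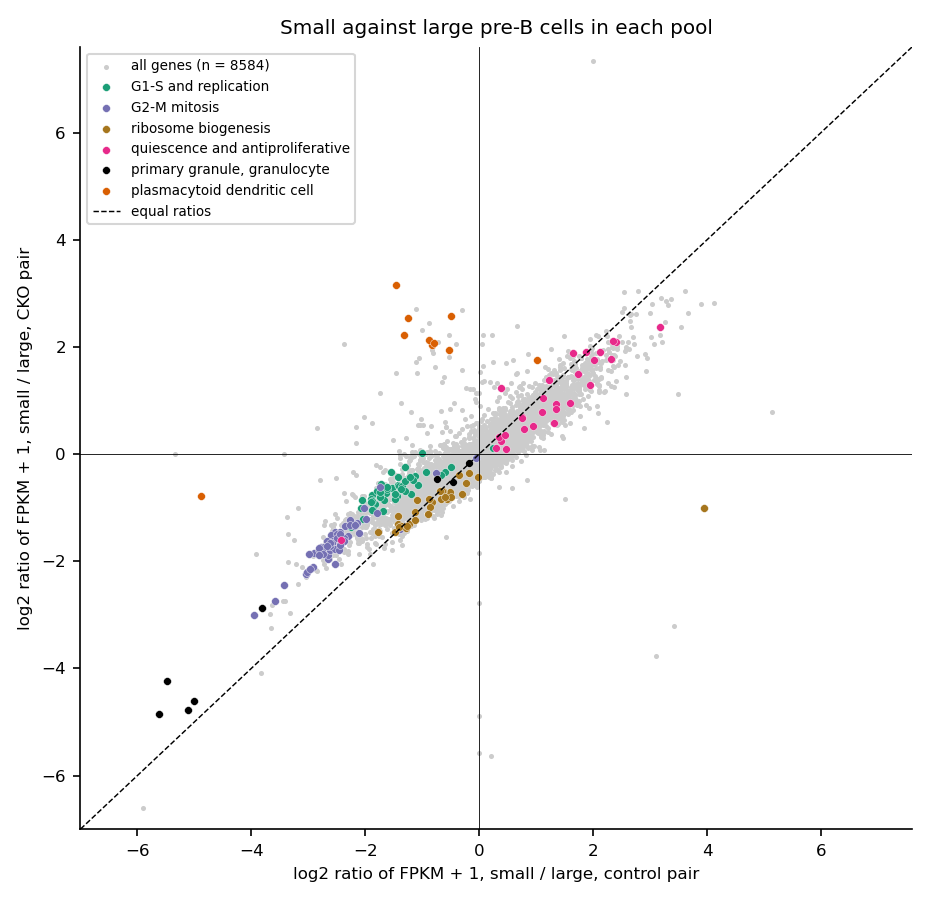
Log2 ratio of FPKM + 1, small over large pre-B cells, in the control pair (x axis) and in the CKO pair (y axis), for genes with at least 5 FPKM in a pre-B library (grey) and for members of 6 gene lists (colours). Most cell-cycle genes lie below 0 on both axes and above the line of equal ratios, ribosome biogenesis genes lie near the line, and genes of plasmacytoid dendritic cells lie above 0 in the CKO pair only, apart from Cox6a2 and Ly6c2; the ribosome biogenesis gene at the far right is Nolc1, listed at 0 in large control cells.

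A test over both pools came from a limma fit of the 8 lymphoid libraries with each pool and lineage as a block. It called 5277 of 11126 genes (47.4%), 2847 higher (25.6%) and 2430 lower (21.8%) in small cells. These p-values measure how far the 2 pre-B pairs, and the 2 thymocyte pairs with which they share the residual, repeat each other, and not the spread between animals. The calls rest on having both pools. Without the control pre-B pair limma called 0 genes higher and 3 lower (3314 at an unadjusted p under 0.05), and without the CKO pre-B pair 845 and 581. For the list counts of this test below, the background is 25.6% of tested genes higher and 21.8% lower. In bulk RNA, fewer cells of a type and less RNA per cell cannot be told apart.

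Mitotic genes were far lower in small cells of both pools. Of 57 genes for the G2 phase and mitosis, 45 fell in the fit and none rose. In the control pair 55 of the 57 were at least 2-fold lower and in the CKO pair 53, against 10.7% and 5.00% of all genes with at least 1 FPKM in a pre-B library. Ube2c, the ubiquitin-conjugating enzyme that works with the anaphase-promoting complex, went from 336 to 20.7 FPKM in the control pair and from 334 to 40.9 FPKM in the CKO pair (log2 difference -3.48, SE 0.50, adjusted p = 0.00615). Ccnb1, the mitotic cyclin B, went from 153 to 11.8 FPKM in the control pair and from 163 to 23.4 FPKM in the CKO pair (-3.17, SE 0.60, adjusted p = 0.0119). Large cells of both pools had nearly equal levels of both genes, and small CKO cells had about the same multiple of the small control level in each. Plk1, a mitotic kinase, went from 111 to 9.4 FPKM in the control pair and from 106 to 18.6 FPKM in the CKO pair and fell (-2.93). Aurka, the kinase of the spindle poles, went from 60.5 to 6.52 FPKM in the control pair and from 66.9 to 13.8 FPKM in the CKO pair (-2.61), and Cdc20, an activator of the anaphase-promoting complex, from 146 to 22.3 FPKM in the control pair and from 157 to 39.5 FPKM in the CKO pair (-2.31). Cdk1, the kinase that cyclin B activates, went from 92.8 to 10.9 FPKM in the control pair and from 94.4 to 25.2 FPKM in the CKO pair (-2.42). The importin Kpna2, outside the list, fell as steeply, from 292 to 26.7 FPKM in the control pair and from 277 to 40.5 FPKM in the CKO pair (-3.07). Mki67, the usual proliferation marker, went from 158 to 35 FPKM in the control pair and from 187 to 75.5 FPKM in the CKO pair, and did not pass the test (-1.72, SE 0.82, adjusted p = 0.135). Pttg1, the securin, stayed between 16.4 and 17.9 FPKM. The median log2 ratio over the list was -2.54 in the control pair and -1.67 in the CKO pair, and 55 of the 57 ratios lay higher in the CKO pair.

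Genes of DNA replication were lower in small cells too, and by less in the CKO pair than in the control pair. All 49 genes of the G1-S list were measured. In the control pair 44 were at least 2-fold lower in small cells, with a median log2 ratio of -1.61. In the CKO pair 6 were, with a median of -0.69, and 48 of the 49 ratios lay higher than in the control pair. Mcm5, a subunit of the replicative helicase, went from 141 to 41.4 FPKM in the control pair and from 165 to 99.4 FPKM in the CKO pair. Pcna, the clamp of the replicative polymerases, went from 646 to 252 FPKM in the control pair and from 758 to 501 FPKM in the CKO pair (-0.98, adjusted p = 0.0418). Rrm2, of ribonucleotide reductase, went from 326 to 87 FPKM in the control pair and from 361 to 202 FPKM in the CKO pair. Of these 3, Mcm5 and Rrm2 were not called. In each of them large CKO cells were slightly above large control cells, and small CKO cells were at about 2 times the level of small control cells. E2f1, a transcription factor that drives this set, went from 26.9 to 12.9 FPKM in the control pair and from 29.8 to 30.3 FPKM in the CKO pair, and was not called. E2f2 was slightly higher in small cells of both pools, from 128 to 151 FPKM in the control pair and from 128 to 139 FPKM in the CKO pair. The fit over 8 libraries called 17 of the 49 lower. The same model on the 4 pre-B libraries alone, with no thymocytes in the residual, called 47 lower. In thymocytes the 2 pairs lay far apart, and Mcm5 went from 131 to 5.86 FPKM in control and from 168 to 60.8 FPKM in CKO thymocytes. Among 23 genes of homologous repair 15 fell, where 21.8% of all tested genes did, and 21 fell in the 4-library model. The medians of the list were -1.51 and -0.76. Fancd2, of the Fanconi pathway, went from 14.9 to 2.96 FPKM in the control pair and from 15.9 to 6.56 FPKM in the CKO pair (-1.58).

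The promoters of both groups held the letters known from cell-cycle genes, and examples are printed for the 2 mitotic genes named first, for Mcm5 and, for contrast, for Rag1. The windows are the 250 bases before the start of the RefSeq transcript on GRCm38.p6 (mm10), 5′ to 3′ on the strand of the gene. Capitals mark every match, on either strand, to the cell-cycle genes homology region or CHR (TTTGAA or TTTAAA), E2F (TTTGGCGC, TTTCCCGC or TTTGCCGC), the CCAAT box (CCAAT) and an E-box (CAGCTG). None of these strings contains another, and matches that overlap run together.
Ccnb1 chr13:100786487-100786736 minus strand: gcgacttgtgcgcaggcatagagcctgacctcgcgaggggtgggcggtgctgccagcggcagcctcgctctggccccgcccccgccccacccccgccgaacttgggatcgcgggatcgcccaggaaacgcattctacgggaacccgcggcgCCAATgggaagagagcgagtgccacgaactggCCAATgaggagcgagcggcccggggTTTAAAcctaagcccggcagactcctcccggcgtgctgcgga
Ube2c chr2:164769679-164769928 plus strand: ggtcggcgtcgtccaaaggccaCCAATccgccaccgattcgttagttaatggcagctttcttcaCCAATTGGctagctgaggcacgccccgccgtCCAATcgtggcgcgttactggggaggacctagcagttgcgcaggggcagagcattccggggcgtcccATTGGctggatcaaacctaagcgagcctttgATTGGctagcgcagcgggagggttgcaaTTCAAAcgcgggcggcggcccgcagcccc
Mcm5 chr8:75109259-75109508 plus strand: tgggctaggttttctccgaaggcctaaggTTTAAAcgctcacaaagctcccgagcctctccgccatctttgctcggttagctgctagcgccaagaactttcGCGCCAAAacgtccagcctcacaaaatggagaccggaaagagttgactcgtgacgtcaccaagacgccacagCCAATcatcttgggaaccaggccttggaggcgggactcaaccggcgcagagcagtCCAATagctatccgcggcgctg
Rag1 chr2:101649533-101649782 minus strand: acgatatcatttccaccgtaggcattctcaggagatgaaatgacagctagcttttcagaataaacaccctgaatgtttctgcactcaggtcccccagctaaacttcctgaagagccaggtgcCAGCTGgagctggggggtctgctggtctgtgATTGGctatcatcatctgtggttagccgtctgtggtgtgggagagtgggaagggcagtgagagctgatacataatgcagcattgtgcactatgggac
Ccnb1 and Ube2c share a CHR match near the start and CCAAT matches. Mcm5 holds the E2F letters, and also CCAAT matches and a CHR match further from the start. Rag1 holds a CCAAT and an E-box match. Windows of 300 bases, which run 50 bases past the start, were found for 49 of the 57 mitotic genes. A CHR match lay in 75.5% of these genes, in 32.5% of 40 matched G1-S genes, in 22.3% of the 8879 matched genes among those tested and in 30.6% of all 27025 genes in the RefSeq table. E2F letters lay in 6.12% of the mitotic genes, in 32.5% of the G1-S genes and in 4.29% of the tested genes. The CCAAT shares were 75.5%, 65.0% and 43.9%. A match describes the sequence and is not evidence of a bound factor.

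Of 25 cyclin D, CDK, inhibitor and pocket protein genes, 12 fell and 1 rose, where 21.8% and 25.6% of all tested genes did. Ccnd3 (chr17:47505051-47599691, plus strand), the D-type cyclin with the highest level here, went from 500.2 to 239.9 FPKM in the control pair and from 329.6 to 162 FPKM in the CKO pair and fell (-1.04, SE 0.12, adjusted p = 0.00421). Its 2 ratios were nearly the same, although both CKO libraries lay below their control counterparts. Ccnd2 went from 18.9 to 3.75 FPKM in the control pair and from 37.1 to 17 FPKM in the CKO pair (-1.57, adjusted p = 0.0119), and both CKO libraries lay above control. Ccnd1 went from 2.6 to 1.17 FPKM in the control pair and from 4.0 to 20.4 FPKM in the CKO pair, so that its highest value was in small CKO cells, and the fit did not call it (adjusted p = 0.395). Cdk4, a partner kinase of the D-type cyclins, fell from 192 to 75.8 FPKM in the control pair and from 226 to 123 FPKM in the CKO pair (-1.10), and Cdk6 from 13.4 to 2.9 FPKM in the control pair and from 15.6 to 4.96 FPKM in the CKO pair (-1.68). The gene that rose was Cdkn1b, which encodes the CDK inhibitor p27, from 48.9 to 116 FPKM in the control pair and from 62.8 to 114 FPKM in the CKO pair (1.04, SE 0.12, adjusted p = 0.00445). The inhibitor Cdkn2c, in contrast, fell from 79.8 to 21.2 FPKM in the control pair and from 79.7 to 40.5 FPKM in the CKO pair (-1.41). Of the DREAM subunits, Lin52 went from 9.82 to 12.9 FPKM in the control pair and from 10.3 to 12.9 FPKM in the CKO pair and Rbl2, the pocket protein p130, from 12.7 to 17 FPKM in the control pair and from 13.7 to 15.9 FPKM in the CKO pair, and neither was called (adjusted p = 0.0604 and 0.0783).

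Antiproliferative and quiescence genes rose together. Of 28 measured, 25 rose in the fit and 1 fell, with median log2 ratios of 1.27 in the control pair and 0.95 in the CKO pair, against 0.08 and 0.02 over all genes. Btg1 and Btg2, which bind the deadenylase complex and restrain proliferation, gave some of the larger rises. Btg1 (chr10:96617006-96622809, plus strand) went from 54.1 to 289.6 FPKM in the control pair and from 35.8 to 156 FPKM in the CKO pair (2.24, SE 0.11, adjusted p = 0.00178) and Btg2 from 84.7 to 438 FPKM in the control pair and from 84.4 to 369 FPKM in the CKO pair (2.24). Slfn2, needed for lymphocyte quiescence, went from 10.8 to 106 FPKM in the control pair and from 6.67 to 38.7 FPKM in the CKO pair (2.77, SE 0.23). Klf2, a transcription factor of resting lymphocytes, went from 56.5 to 283 FPKM in the control pair and from 33 to 116 FPKM in the CKO pair (2.05). In these 4 genes every small library lay above every large one. Foxo1, which drives Rag transcription in B cell precursors, went from 35.9 to 111 FPKM in the control pair and from 39.6 to 78.2 FPKM in the CKO pair (1.28). Pik3ip1, an inhibitor of PI3 kinase, gave nearly equal ratios in both pairs, from 8.25 to 33.1 FPKM in the control pair and from 11.4 to 45.5 FPKM in the CKO pair. Mxd4, an antagonist of MYC, had the larger log2 ratio in the CKO pair (1.88 against 1.65), from 25.4 to 82.2 FPKM in the control pair and from 38.2 to 144 FPKM in the CKO pair. The member that fell was Mxd3, from 48.7 to 8.3 FPKM in the control pair and from 51.8 to 16.4 FPKM in the CKO pair (-2.01), a MXD protein known to be made in S phase.

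**Figure D2:**
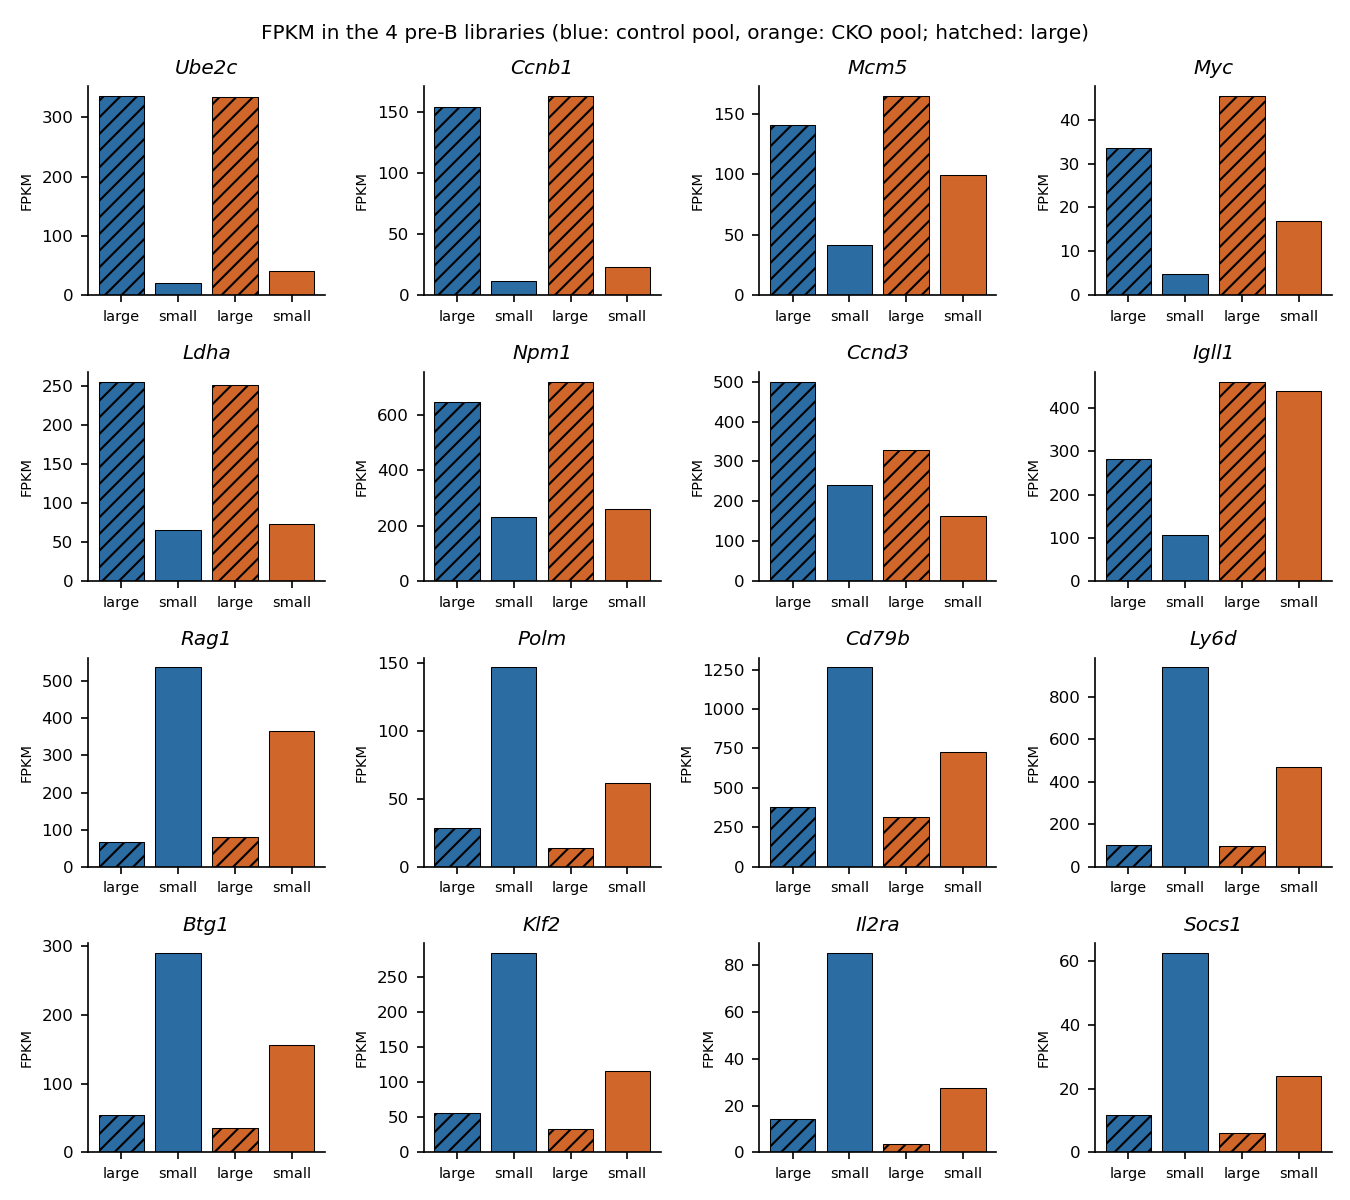
FPKM (y axis, from 0) of 16 genes in the 4 pre-B libraries, 1 bar per library, blue for the control pool, orange for the CKO pool and hatched for large cells. The upper panels hold genes that are lower in small cells, such as Ube2c and Ldha, and the lower ones genes that are higher, such as Rag1 and Btg1. Igll1 is far lower in small cells of the control pair and nearly level in the CKO pair.

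Surrogate light chain genes were lower in small than in large cells in the control pair and nearly level in the CKO pair. Igll1 (chr16:16860671-16863985, minus strand), which encodes lambda 5, went from 282 to 107 FPKM in the control pair and from 462 to 440.0 FPKM in the CKO pair. Its neighbour Vpreb1 (chr16:16868403-16870843, minus strand) went from 253 to 132 FPKM in the control pair and from 415 to 418 FPKM in the CKO pair, and Vpreb2, further along the chromosome, from 87 to 38.1 FPKM in the control pair and from 152 to 156 FPKM in the CKO pair. All 3 genes gave nearly equal values in the 2 CKO libraries. The difference between the pairs has no test with 1 library on each side, and none of the 3 was called over both pools (adjusted p = 0.0977, 0.146 and 0.148). Vpreb3, an endoplasmic reticulum protein of the same family, did the opposite and rose, from 729 to 1344 FPKM in the control pair and from 579.7 to 857 FPKM in the CKO pair (0.72, adjusted p = 0.00872). Dntt, the template-independent polymerase TdT, had levels about 3 times higher in large CKO than in large control cells and fell from 139 to 68.4 FPKM in the control pair and from 403 to 326 FPKM in the CKO pair (-0.66). Vpreb1 and Vpreb2 are near-identical paralogs, so their separate values are uncertain.

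Interleukin-7 signalling genes gave a mixed picture. The receptor Il7r rose slightly, from 94.8 to 140.4 FPKM in the control pair and from 77 to 112 FPKM in the CKO pair (0.55, adjusted p = 0.0128), and so did its partner chain Il2rg, from 27.6 to 52.5 FPKM in the control pair and from 28.3 to 46.4 FPKM in the CKO pair (0.80). Myc, which growth signals induce, fell from 33.6 to 4.81 FPKM in the control pair and from 45.4 to 16.9 FPKM in the CKO pair (-1.97, SE 0.29, adjusted p = 0.00659), and small CKO cells had more than 3 times the small control level. Socs1, a feedback inhibitor of JAK kinases, rose from 11.6 to 62.5 FPKM in the control pair and from 5.96 to 24 FPKM in the CKO pair (2.09), and Pim2, a survival kinase, from 14 to 91.6 FPKM in the control pair and from 11.2 to 46.7 FPKM in the CKO pair (2.30). Socs2 fell, from 18.7 to 8.92 FPKM in the control pair and from 44.6 to 30.3 FPKM in the CKO pair (-0.77). Stat5a and Stat5b, the main transducers of this receptor, lay between 12.2 and 21.9 FPKM in all libraries and were not called.

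Recombination genes moved both ways. Of 17 genes, 6 rose and 6 fell, where 25.6% and 21.8% of all tested genes did, so that the list as a whole was not far from the background. Rag1 (chr2:101638282-101649501, minus strand), of the recombinase, rose from 65.4 to 538 FPKM in the control pair and from 79.8 to 367 FPKM in the CKO pair (2.60, SE 0.23, adjusted p = 0.00264). Rag2, its partner, rose less, from 24.2 to 45.1 FPKM in the control pair and from 29 to 43.6 FPKM in the CKO pair (0.72). Every small library exceeded every large one for both genes. Polm, a polymerase that joins light chain ends, went from 28.7 to 147 FPKM in the control pair and from 13.8 to 61.6 FPKM in the CKO pair (2.20), and Dclre1c, the nuclease Artemis that opens the hairpins, from 8.3 to 19.9 FPKM in the control pair and from 7.25 to 19 FPKM in the CKO pair (1.22). The 6 that fell were Dntt, Poll, Xrcc5, Hmgb1, H2afx and Mdc1, of which Hmgb1 and H2afx encode chromatin proteins. H2afx went from 589 to 95.7 FPKM in the control pair and from 652 to 199 FPKM in the CKO pair (-2.16). The genes of the Ku heterodimer parted, with Xrcc6 rising from 127 to 245 FPKM in the control pair and from 99.7 to 163 FPKM in the CKO pair and Xrcc5 falling from 8.61 to 4.16 FPKM in the control pair and from 8.92 to 3.57 FPKM in the CKO pair.

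B lineage transcription factors rose moderately, 19 of 28, and none fell, where 25.6% of all tested genes rose and 21.8% fell. Spib, an ETS factor of B cells, went from 214 to 839 FPKM in the control pair and from 108 to 419.7 FPKM in the CKO pair (1.95), and Ikzf3, Aiolos, from 39.2 to 152 FPKM in the control pair and from 24 to 80.6 FPKM in the CKO pair (1.82). Pax5, which fixes B lineage identity, went from 86.8 to 184 FPKM in the control pair and from 98.4 to 129 FPKM in the CKO pair (0.73, adjusted p = 0.0253). Irf4, which acts in the large to small transition, rose from 104 to 192 FPKM in the control pair and from 68.8 to 134 FPKM in the CKO pair (0.91). Irf8 went from 81 to 92.5 FPKM in the control pair and from 82.5 to 212 FPKM in the CKO pair, with its highest value in small CKO cells, and was not called (adjusted p = 0.0789). Lef1, a factor of early precursors, went from 54.6 to 26 FPKM in the control pair and from 59.2 to 62.9 FPKM in the CKO pair, and was not called either (adjusted p = 0.197).

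Genes of the B cell receptor and of later B cell stages rose with them. Of 27 signalling genes 19 rose and 1, the phosphatase Ptpn22, fell, where 25.6% and 21.8% of all tested genes did. Cd79b (chr11:106311341-106314762, minus strand), a signalling chain of the receptor, went from 379 to 1264 FPKM in the control pair and from 316 to 727 FPKM in the CKO pair (1.47, SE 0.20, adjusted p = 0.0053), and Cd79a from 477 to 1238 FPKM in the control pair and from 465 to 675 FPKM in the CKO pair (0.95). The kinases Syk and Lyn rose from 177 to 489 FPKM in the control pair and from 133 to 283 FPKM in the CKO pair and from 66.6 to 175 FPKM in the control pair and from 45.2 to 97.8 FPKM in the CKO pair. Of 30 surface genes of maturing B cells 22 rose and 2 fell. Ms4a1 (chr19:11249675-11266241, minus strand), which encodes CD20, gave the highest value among the genes that met the naming rule, from 3.61 to 79 FPKM in the control pair and from 2.06 to 20.7 FPKM in the CKO pair (3.47, SE 0.30, adjusted p = 0.0027). Il2ra, CD25, by which small pre-B cells are recognised, rose from 14.2 to 85.2 FPKM in the control pair and from 3.53 to 27.4 FPKM in the CKO pair (2.57). Ly6d (chr15:74762056-74763620, minus strand) rose from 103 to 939 FPKM in the control pair and from 99.2 to 468 FPKM in the CKO pair (2.70), Cd40 from 1.32 to 15 FPKM in the control pair and from 0.844 to 14.3 FPKM in the CKO pair (2.92) and Cd2 from 14.1 to 101 FPKM in the control pair and from 5.64 to 22.7 FPKM in the CKO pair (2.30). Cd40 and Il2ra had larger ratios in the CKO pair, and Ms4a1, Ly6d and Cd2 in the control pair. The members that fell were Spn, CD43, and Enpep, BP-1, both marks of earlier precursors, from 49.97 to 21.3 FPKM in the control pair and from 57.3 to 39.7 FPKM in the CKO pair and from 16 to 6.51 FPKM in the control pair and from 3.94 to 3.0 FPKM in the CKO pair. Of 6 tested genes on a list for mature B and plasma cells 5 rose and 1, Igj, fell, where 25.6% and 21.8% of all tested genes did. Cr2 and Ccr6, on the same list, were under 1 FPKM in all 4 libraries and were not tested.

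Other genes named by size in this direction were Faim3, a receptor for IgM, from 4.07 to 61.1 FPKM in the control pair and from 1.36 to 18.6 FPKM in the CKO pair (3.33), and the BH3-only gene Bmf from 4.79 to 55.2 FPKM in the control pair and from 4.65 to 39.8 FPKM in the CKO pair (3.07). Col5a3, a collagen gene, went from 7.14 to 120.0 FPKM in the control pair and from 0.935 to 12.5 FPKM in the CKO pair (3.35). Among BCL2 relatives Bcl2l1, which encodes the survival protein BCL-XL, rose from 44.9 to 104 FPKM in the control pair and from 39.8 to 63.7 FPKM in the CKO pair (0.93) and Mcl1 from 75.5 to 189 FPKM in the control pair and from 81.7 to 179.8 FPKM in the CKO pair (1.22). Of 11 tested genes of the family 5 rose, pro-apoptotic and survival genes among them, and 2 fell, where 25.6% and 21.8% of all tested genes did. The median log2 ratios of the list were 0.31 in the control pair and 0.27 in the CKO pair. The genes that fell were Bid and Bcl2, Bcl2 from 2.12 to 0.468 FPKM in the control pair and from 2.34 to 1.12 FPKM in the CKO pair. Of 10 chemokine and egress receptor genes 6 rose, where 25.6% of all tested genes did. Among them were S1pr1, a receptor for exit into the blood, from 5.91 to 51.2 FPKM in the control pair and from 5.95 to 24.6 FPKM in the CKO pair (2.40), and Cxcr4, which holds precursors in the marrow, from 222 to 386 FPKM in the control pair and from 181 to 286 FPKM in the CKO pair (0.72).

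Growth metabolism was lower in small cells of both pools, by similar amounts. Of 30 ribosome biogenesis genes 26 fell and none rose, with medians of -0.87 and -0.86 over the 29 genes other than Nolc1. Npm1, a nucleolar chaperone, went from 647 to 231 FPKM in the control pair and from 719 to 261 FPKM in the CKO pair (-1.47, SE 0.12, adjusted p = 0.00255), and Ncl, nucleolin, from 128 to 47 FPKM in the control pair and from 150.2 to 60.5 FPKM in the CKO pair (-1.36). For these genes the CKO pair repeated the control pair closely, and 10 of the 29 ratios lay higher there, against 48 of 49 for replication. Nolc1 is listed at 0 in large control cells. With it the medians were -0.85 and -0.88, so that the order of the pairs turned. Of 36 ribosomal protein genes 31 fell, with medians of -0.44 and -0.61. Rps2 fell furthest, from 1578 to 482 FPKM in the control pair and from 1738 to 590.5 FPKM in the CKO pair (-1.63).

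Enzymes of nucleotide synthesis and glycolysis fell as well. Of 22 genes for purines, pyrimidines and one-carbon units 20 fell (medians -1.47 and -1.12). Shmt1, of folate metabolism, went from 21.6 to 2.77 FPKM in the control pair and from 26.3 to 8.0 FPKM in the CKO pair (-2.09), and Atic, of purine synthesis, from 54 to 12.3 FPKM in the control pair and from 60.9 to 19.3 FPKM in the CKO pair (-1.83). Of 19 glycolysis genes 13 fell and none rose. Ldha (chr7:46841475-46855627, plus strand), lactate dehydrogenase, went from 256 to 66 FPKM in the control pair and from 251 to 72.6 FPKM in the CKO pair (-1.86, SE 0.10, adjusted p = 0.00178). Gapdh went from 905 to 266 FPKM in the control pair and from 1013 to 379.9 FPKM in the CKO pair (-1.59). The glucose transporter Slc2a1 lay between 6.52 and 6.85 FPKM. Of 32 genes of oxidative phosphorylation 25 fell, by less (medians -0.46 and -0.52), with Cox5a the furthest, from 227 to 111 FPKM in the control pair and from 219.9 to 119 FPKM in the CKO pair (-0.96). Sterol and fatty acid genes were near the background, in which 21.8% of all tested genes fell. Of 26, 7 fell and 1, the desaturase Scd1, rose, from 11.3 to 45.4 FPKM in the control pair and from 5.5 to 15.7 FPKM in the CKO pair (1.64).

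**Figure D3:**
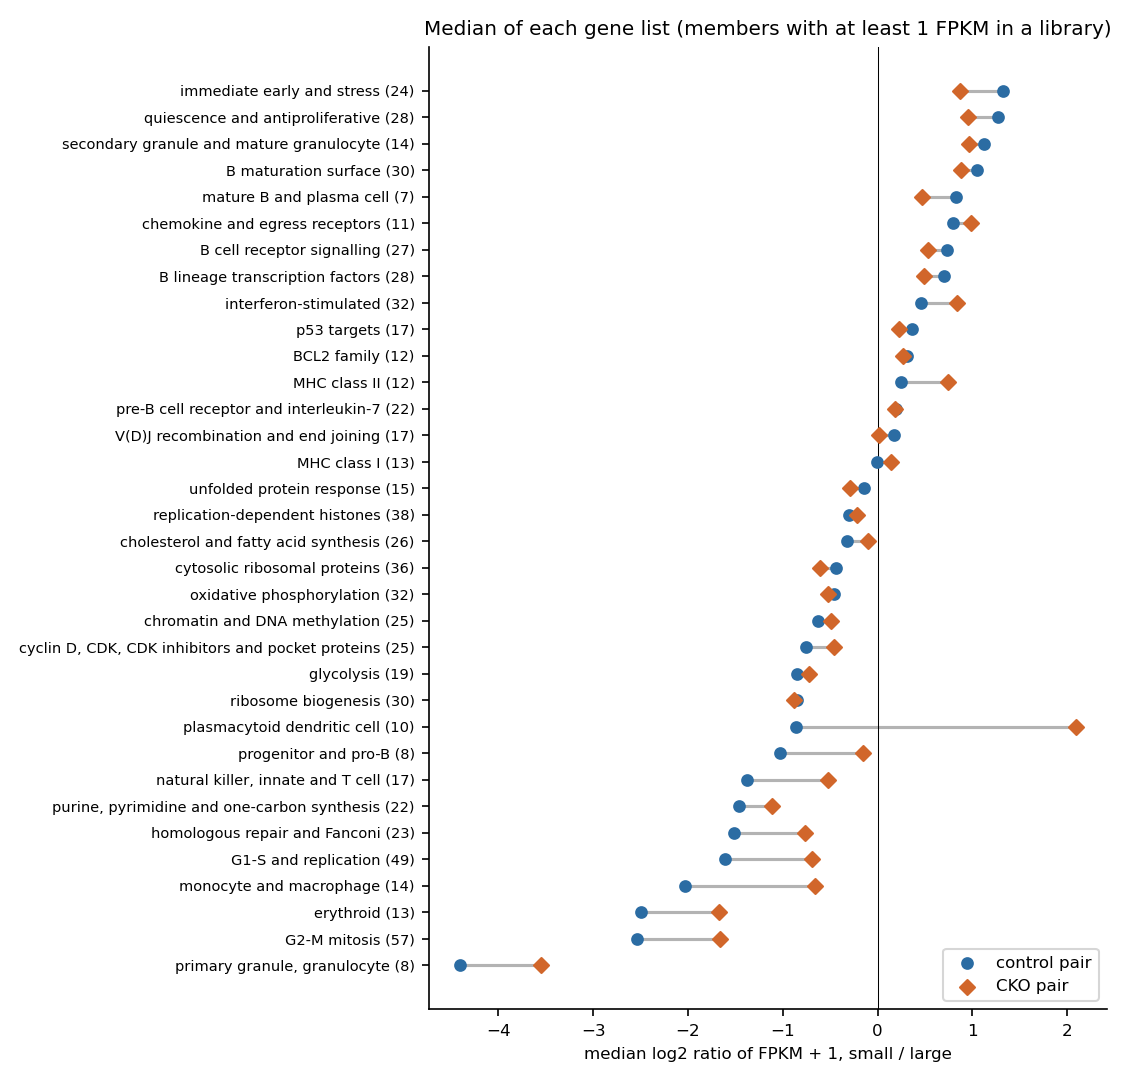
Median log2 ratio of FPKM + 1, small over large, of 34 gene lists in the control pair (circles) and the CKO pair (diamonds), with the number of measured members in brackets. Replication, repair and mitosis lists have medians nearer 0 in the CKO pair, those of the ribosome and oxidative phosphorylation lists lie close together (ribosome biogenesis is drawn with Nolc1), and the list of plasmacytoid dendritic cells changes sign.

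Immediate early genes were higher in small cells. Of 24, 19 rose and 1 fell, with medians of 1.33 and 0.87. Jund, an AP-1 subunit, went from 91 to 410.0 FPKM in the control pair and from 69.9 to 235 FPKM in the CKO pair (1.95), Fos from 60.4 to 174 FPKM in the control pair and from 42.1 to 72 FPKM in the CKO pair (1.14, adjusted p = 0.0188), and Tnfaip3, a brake on NF-kappaB, from 9.22 to 40.6 FPKM in the control pair and from 10.1 to 36.8 FPKM in the CKO pair (1.90). Hspa1a, a heat shock gene, fell, from 11.7 to 4.51 FPKM in the control pair and from 21.1 to 15.6 FPKM in the CKO pair (-0.81). Of 31 interferon-stimulated genes 18 rose and none fell, where 25.6% and 21.8% of all tested genes did. Ddx58, an RNA sensor, went from 4.02 to 25.4 FPKM in the control pair and from 5.56 to 15.9 FPKM in the CKO pair (1.88). The median log2 ratio was 0.45 in the control pair and 0.84 in the CKO pair. Of 12 class II genes 6 rose in the fit, where 25.6% of all tested genes did. In the control pair 6 of the 12 ratios were above 0 and in the CKO pair all 12, with median log2 ratios of 0.25 and 0.74. Among the genes that rose was Cd74, the invariant chain, from 135 to 245 FPKM in the control pair and from 58.5 to 216 FPKM in the CKO pair (1.36). H2-Aa, a class II chain itself, was lower in small control cells and higher in small CKO cells, from 91.7 to 44.6 FPKM in the control pair and from 33.8 to 53.7 FPKM in the CKO pair, and was not called.

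Genes of other cell types differed between the libraries and stand beside these results. The summed FPKM of 8 primary granule genes was 968 in large and 50.8 in small control cells and 423 and 39.6 in the CKO pair. Mpo, myeloperoxidase, went from 365 to 6.48 FPKM in the control pair and from 159 to 4.57 FPKM in the CKO pair (-5.23), and Elane, neutrophil elastase, from 251 to 6.86 FPKM in the control pair and from 115 to 3.72 FPKM in the CKO pair (-4.81). The 13 erythroid genes summed to 502 and 42.2 FPKM in the control pair and to 314 and 59.9 FPKM in the CKO pair. Both sums were higher in large cells of both pools, and highest in the large control library. All 13 erythroid genes fell in the fit. With either pre-B pair left out, only 3 of them still reached 1 FPKM in 2 libraries. Most thus entered the fit through the large pre-B libraries, so that the filter favoured a fall. The 15 genes of mature granulocytes went the other way, from 246 to 654 FPKM and from 183 to 491 FPKM. S100a8, of their cytosol, rose from 104 to 272 FPKM in the control pair and from 84.1 to 221 FPKM in the CKO pair (1.38). The part of these cells in the pre-B results was not tested. The T cell genes Cd3e, Cd3d, Cd3g and Cd8a were under 1 FPKM in all 4 libraries.

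**Figure D4:**
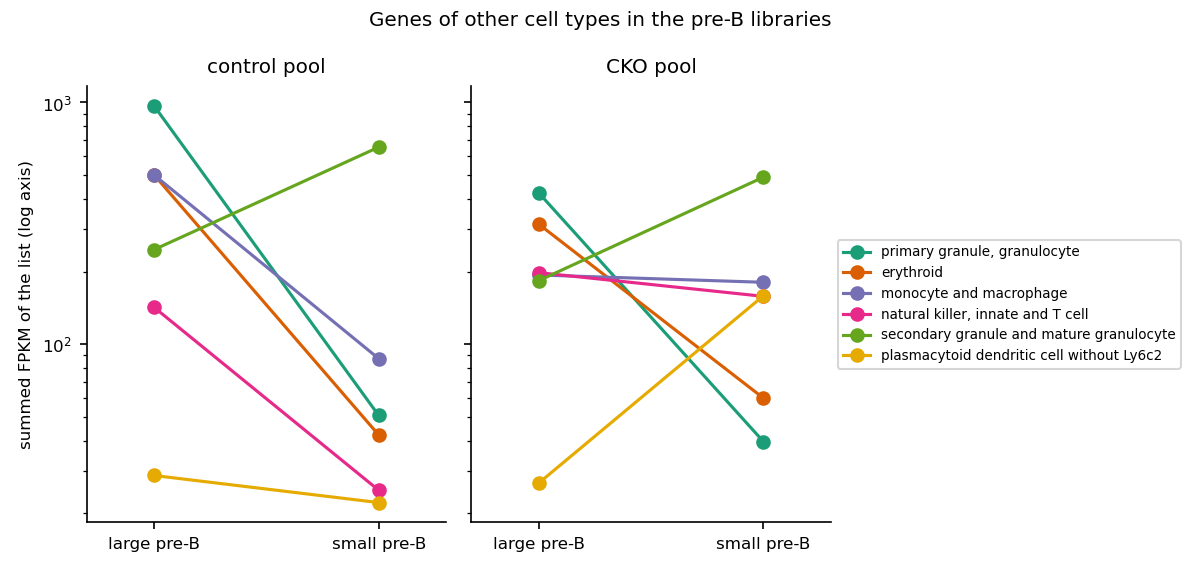
Summed FPKM of marker genes of 6 other cell types (log axis) in large and small pre-B cells of the control pool (left) and the CKO pool (right), 1 point per library. Primary granule and erythroid genes are lower and mature granulocyte genes higher in small cells of both pools, while genes of plasmacytoid dendritic cells without Ly6c2 go from 26.7 to 159 FPKM in the CKO pool and from 28.7 to 22.2 FPKM in the control pool.

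Genes of plasmacytoid dendritic cells had their highest sum in small CKO cells. Without Ly6c2, which monocytes share, the 9 genes of plasmacytoid dendritic cells summed to 28.7 and 22.2 FPKM in the control pair and to 26.7 and 159 FPKM in the CKO pair. In the CKO pair 9 of the 10 genes on the full list were at least 2-fold higher in small cells, against 5.45% of all genes, and in the control pair 1, against 8.60%. Siglech (chr7:55768178-55778925, plus strand), the receptor that defines these cells in mice, went from 7.99 to 2.25 FPKM in the control pair and from 3.76 to 41.5 FPKM in the CKO pair. Cd300c went from 1.21 to 0.578 FPKM in the control pair and from 1.28 to 12.7 FPKM in the CKO pair, and Klk1 from 2.8 to 0.602 FPKM in the control pair and from 0.287 to 6.49 FPKM in the CKO pair. Small CKO cells had the highest of the 4 values in all 3 genes, and none was called in the fit (adjusted p = 0.515, 0.24 and 0.543). Small CKO cells also lay above small control cells in some other marker sums. They lay below in primary granule genes (39.6 against 50.8 FPKM) and mature granulocyte genes (491 against 654 FPKM). The same held for mature B and plasma cell (38.9 against 69.7 FPKM), stroma (51.4 against 72.9 FPKM) and megakaryocyte genes (3.18 against 4.13 FPKM). For the erythroid genes above, the sums were 42.2 FPKM in small control and 59.9 FPKM in small CKO cells. Of these, Car2 had 13.8 and 36.3 FPKM, while the alpha globin genes were lower in small CKO cells (17.6 and 15.4 FPKM). Natural killer and T cell genes summed to 142 and 24.9 FPKM in the control pair and to 198 and 158 FPKM in the CKO pair. The sums were 501 and 87.3 FPKM against 194 and 181 FPKM for monocyte and macrophage genes, and 89.0 and 44.0 FPKM against 170 and 139 FPKM for progenitor genes. Mpeg1 and Ly6c2 made up most of the monocyte sum in small CKO cells, with 77.6 and 45.6 FPKM. In small control cells they had 4.27 and 6.38 FPKM. Lyz2, on the same list, was lower in small CKO than in small control cells (25.5 against 32.4 FPKM). Gzma, a granzyme, went from 9.95 to 2.03 FPKM in the control pair and from 41.6 to 23.3 FPKM in the CKO pair, and Nkg7 from 26 to 1.62 FPKM in the control pair and from 27.5 to 11.6 FPKM in the CKO pair. Irf8 and the class II genes above are known to be active in dendritic cells too. The class II genes summed to 478 and 591 FPKM in the control pair and to 266 and 575 FPKM in the CKO pair. Small CKO cells thus did not exceed small control cells in the class II sum, and the large CKO library was the lowest. The part of such cells in any CKO value was not tested.

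Between the pools, the CKO log2 ratio exceeded the control ratio by at least 1 in 205 of 8584 genes (2.39%) and lay below it by at least 1 in 41 (0.478%), with no test. Small RNA genes, predicted genes, receptor segments and genes listed at 0 beside a partner library of at least 10 FPKM count in these numbers and were left out of the ranking. Without any gene listed at 0 in a pre-B library, whatever its partner value, the counts were 201 and 30. Among the genes ranked, the 10 highest differences were Siglech, Mpeg1, Ly6c2, Pltp, Klk1, Lair1, Fcer1g, Cd7, Cd300c and Lag3. The 10 lowest of the ranked genes, apart from Ifitm1, were genes that were higher in small cells of both pools and less so in the CKO pair. Reln, which encodes reelin, went from 1.03 to 21.9 FPKM in the control pair and from 0.116 to 1.42 FPKM in the CKO pair. Rgs16, a brake on chemokine receptors, went from 1.78 to 20.3 FPKM in the control pair and from 0.468 to 3.29 FPKM in the CKO pair and Bank1, an adaptor of the B cell receptor, from 1.39 to 9.16 FPKM in the control pair and from 1.35 to 2.98 FPKM in the CKO pair.

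The J chain gene had the steepest fall among the called genes. Igj, which links IgM and IgA multimers, went from 65.1 to 0.101 FPKM in the control pair and from 130.4 to 0.355 FPKM in the CKO pair (-6.25, SE 0.20, adjusted p = 0.000798). Both large libraries were above 60 FPKM and both small ones under 1 FPKM, and the level in large CKO cells was about 2 times that in large control cells. Sdc1, CD138, the usual marker of plasma cells, did not follow it, and rose from 23.4 to 39.1 FPKM in the control pair and from 9.43 to 13.5 FPKM in the CKO pair (0.59, adjusted p = 0.0221).

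The pre-B step was set beside that from cycling to quiescent thymocytes in the same fit. The contrast of the 2 state effects called 358 genes higher (3.22%) and 403 lower (3.62%) in pre-B cells, 6.84% of 11126 together. Genes under 1 FPKM in all 4 thymocyte libraries count in these numbers. Of the G1-S list 1 gene was called in the contrast and of the G2-M list 1, with fitted medians of -1.13 and -2.12 in pre-B cells and -2.03 and -3.27 in thymocytes. Glycolysis had 7 of 19 genes called lower. Ldha went from 275 to 212 FPKM in control and from 188 to 141 FPKM in CKO thymocytes, and its contrast was -1.46 (SE 0.14, adjusted p = 0.0169). Pdk1, which keeps pyruvate out of the mitochondria, was higher in quiescent thymocytes, from 15.2 to 56.5 FPKM in control and from 12.8 to 37.5 FPKM in CKO thymocytes, and its contrast was -2.05 (SE 0.19, adjusted p = 0.0169). Ribosome biogenesis had 8 of 30 called lower. Gnl3, nucleostemin, went from 26.5 to 25 FPKM in control and from 25.6 to 30.4 FPKM in CKO thymocytes, against 31.2 to 8.4 FPKM in the control pair and from 37.4 to 13.1 FPKM in the CKO pair in pre-B cells, with a contrast of -1.69 (adjusted p = 0.022).

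In the other direction, 8 of 24 immediate early and 4 of 28 quiescence genes were called higher in the contrast. Klf2 went from 27.4 to 21.1 FPKM in control and from 24.4 to 31.4 FPKM in CKO thymocytes, with a contrast of 2.05 (SE 0.30, adjusted p = 0.0294), and Jund from 241 to 314 FPKM in control and from 297 to 377 FPKM in CKO thymocytes (1.59). Fam83d, a spindle protein, fell from 13.8 to 1.28 FPKM in the control pair and from 15.2 to 2.73 FPKM in the CKO pair in pre-B cells and was higher in quiescent thymocytes, from 114 to 187 FPKM in control and from 104 to 201 FPKM in CKO thymocytes (-3.24, adjusted p = 0.0128). The contrast depended on having all 4 pairs. Leaving out either pre-B pair left 0 calls by limma (1765 and 2307 genes at an unadjusted p under 0.05, without the control and the CKO pair), and without the control thymocyte pair 2 genes were called higher and 11 lower, and without the CKO thymocyte pair 231 and 128.

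**Figure D5:**
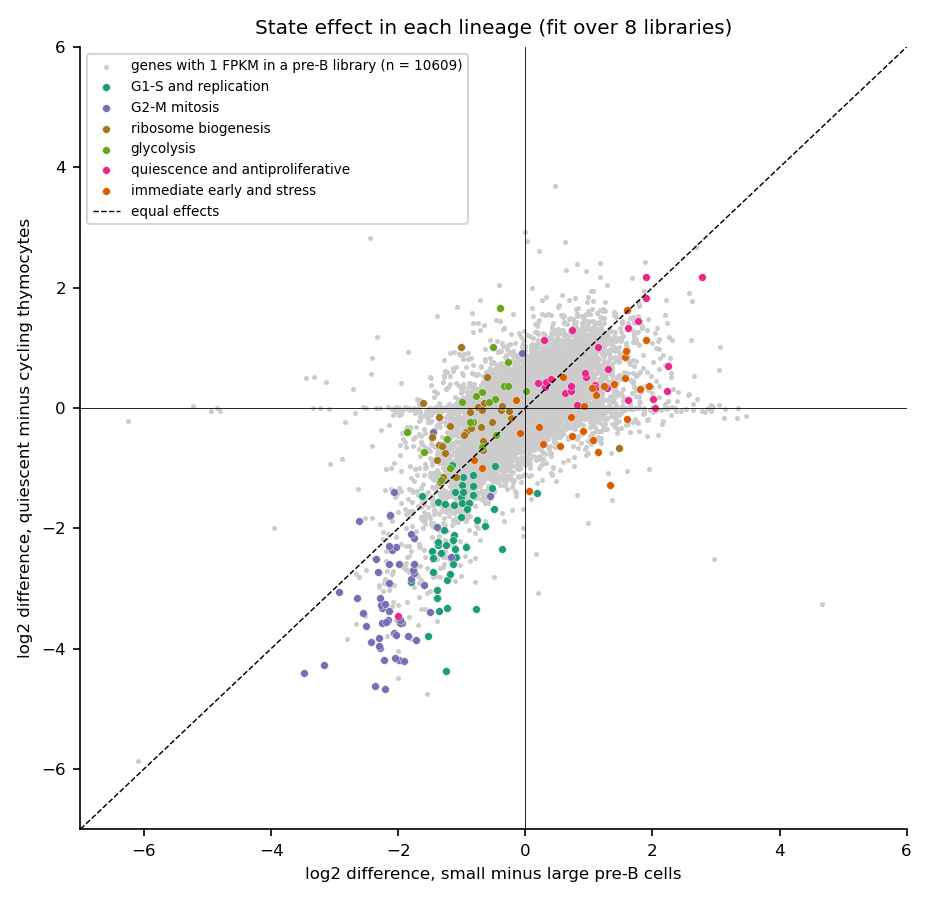
Fitted log2 difference, small minus large pre-B cells (x axis) and quiescent minus cycling thymocytes (y axis), for genes with at least 1 FPKM in a pre-B library (grey) and 6 gene lists (colours). Most replication and mitosis genes lie below the line of equal effects, while glycolysis and ribosome biogenesis genes fall on the x axis more than on the y axis and immediate early genes rise mainly on the x axis.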

How the data were processed

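Cells were labelled for surface proteins and with dyes for nucleic acid, and total RNA was extracted, per the labels' protocols, which do not name the gates. The submitters' processing notes list TopHat2 2.0.8b, Cuffdiff 2.1.1 and mm10. The deposited values are read as FPKM, a unit inferred from these tools and the values, with an annotation and strand setting not given in the sources used here. FPKM are relative within a library, so total RNA per cell cannot be seen.

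From the deposited FPKM, exact repeats were dropped (201 of 23179 rows), each symbol kept its row of highest mean, and log2(FPKM + 1) was taken, which understates changes of low genes. The fit was limma-trend (limma 3.58.1, R 4.3.3) on the 8 lymphoid libraries, with 4 blocks for lineage and pool, a state effect per lineage and 2 residual degrees of freedom. The blocks pair libraries within genotype, with all populations of a genotype taken as 1 pool. The labels give 2 mice pooled for each library. Whether the libraries of a genotype came from the same 2 mice was not checked. Genes needed 1 FPKM in 2 libraries, and the threshold was a Benjamini-Hochberg adjusted p of 0.05 over 11126 genes, two-sided. Data were simulated for the pre-B comparison on 11126 genes, with independent noise of the typical spread that limma fitted. The changed genes were drawn from those above the median level. Of 100 genes changed 2-fold, 100% were recovered, and 12 unchanged genes were called. Genes with a wider spread can be missed at this size, as Rrm2 was in the data (log2 difference -1.36, adjusted p = 0.176, limma).

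Depth is not known. Among 1914 genes of low value, the commonest ratio to large control cells was 1.31 in small control, 0.99 in large CKO and 1.07 in small CKO cells, shared by only 26, 73 and 18 genes. An exact 0 can be a failed estimate and is given as listed at 0. The members and the 36 gene lists were chosen with earlier results of these data known, and so were the rules: per direction the 12 called genes with the largest change, per list the 3 highest and 2 most changed members, of which the text gives some with others chosen for their role, for the difference between the pairs the 10 highest and 10 lowest, and for the lineage contrast 8 each way. Some genes that met these rules are not reported here. Of 831 list entries 826 were found. Gene positions are from GENCODE vM21 and promoters from RefSeq. Alternatives were other pseudocounts, filters, scalings and blocks, the 4 pre-B libraries alone and leaving out each pair. Other software was numpy 2.4.6, pandas 2.3.3, matplotlib 3.10.9 and Python 3.11.15.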

Additional observations from a re-analysis of the deposited data

Results flagged for a closer look

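Several genes had a small against large difference in pre-B cells that limma called different from the quiescent against cycling difference in thymocytes. Most of them were under 1 FPKM in all 4 thymocyte libraries, so that their contrast mainly repeats the pre-B change. The exceptions among those named here were Spib, F13a1 and Fam83d. The excess in pre-B cells, on the log2(FPKM + 1) scale, was 3.60 for Ms4a1, 3.51 for Faim3, 3.35 for Col5a3, 3.16 for Pde4c, 2.99 for Tmem163, 2.97 for Spib and 2.96 for Cd40. Pde4c, a cyclic AMP phosphodiesterase, went from 0.744 to 21.1 FPKM in the control pair and from 0.486 to 8.2 FPKM in the CKO pair. Tmem163 went from 1.92 to 25.6 FPKM and from 0.960 to 13.7 FPKM. In the other direction the values were -6.04 for Igj, -5.27 for Mpo, -4.90 for Prtn3, -4.86 for Ctsg, -4.76 for Elane, -3.52 for F13a1, -3.34 for Ms4a3 and -3.24 for Fam83d. Mpo, Prtn3, Ctsg and Elane encode proteins of primary granules of myeloid cells. F13a1, of monocytes, went from 29.9 to 3.40 FPKM in the control pair and from 10.6 to 2.20 FPKM in the CKO pair.

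Among the 10 highest and the 10 lowest differences between the pairs named by rule, the control and the CKO pair moved in opposite directions in 10 genes. The difference was not tested, with 1 library on each side. The CKO ratio exceeded the control ratio by 4.63 for Siglech, 4.42 for Mpeg1, 3.82 for Pltp, 3.79 for Klk1, 3.55 for Lair1, 3.34 for Fcer1g, 3.32 for Cd7, 3.07 for Cd300c and 3.01 for Lag3. Mpeg1, a pore protein of phagocytes, went from 26.2 to 4.27 FPKM in the control pair and from 17.9 to 77.6 FPKM in the CKO pair. Cd7 went from 6.67 to 2.81 FPKM and from 7.5 to 41.2 FPKM, and Fcer1g, a signalling chain of Fc receptors, from 39.8 to 4.71 FPKM and from 24.6 to 35.2 FPKM. Ifitm1, an interferon-induced membrane protein, went the other way, from 1.77 to 6.88 FPKM and from 6.94 to 3.44 FPKM, a difference of -2.35.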

How the results depend on the processing

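The counts over both pools, 2847 genes higher and 2430 lower, were 1980 and 1710 with no replicate block and 2810 and 2542 in the 4 pre-B libraries alone. Leaving out 1 pair at a time gave 0 to 2594 higher and 3 to 2378 lower, lowest without the control pre-B pair. The lineage contrast, 358 higher and 403 lower, moved more. It gave 2 and 12 calls with no replicate block, 173 and 188 with a pseudocount of 0.1, 0 and 0 by limma with no filter on low values (3857 genes at an unadjusted p under 0.05), 266 lower after rescaling by median ratios, and 0 to 231 higher and 0 to 128 lower with a pair left out. With a pseudocount of 5 the counts of 2-fold differences were 473 higher and 595 lower in the control pair and 262 and 298 in the CKO pair, and those of the difference between the pairs 67 and 21. That difference gave 324 higher with a pseudocount of 0.1 and 317 with a minimum of 1 FPKM. Of 107 genes named in the text and tested in the fit, 82 kept their direction but lost the call without the control pre-B pair, 24 without the CKO pre-B pair and 17 with no replicate block.

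Some uncalled genes changed sign when 1 pair was left out. Their log2 differences ran from -0.93 to 0.0097 for Vpreb1, from -1.17 to 0.037 for Vpreb2, from -1.001 to 0.022 for E2f1, from -1.04 to 0.085 for Lef1 and from -1.02 to 0.65 for H2-Aa, each highest without the control pre-B pair, and from -1.47 to 3.16 for Siglech and from -0.73 to 2.1 for Ccnd1, lowest without the CKO pre-B pair. The deposited values carry no counts, so no interval from depth can be given.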
